A study of Mus musculus with 6 samples.

Results

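Sperm of the mouse swim and change their beat through a set of membrane proteins that are made late in spermatogenesis. CatSper is the calcium channel of the sperm tail: separate genes encode its pore-forming subunits, and auxiliary subunits hold the complex together. Kcnu1 (Slo3) carries the potassium current that sets the membrane voltage, Hvcn1 is a voltage-gated proton channel, and Atp1a4 is the sodium pump subunit of male germ cells. Adcy10 is the soluble adenylyl cyclase that bicarbonate activates. The cyclic AMP it makes activates protein kinase A, whose alpha catalytic subunit is Prkaca. These 10 genes, counting Catsper1, Catsper2, Catsper3, Catsperb and Catsperd, were followed here by exact gene symbol. The array gave 12 probe sets for 9 of them, out of 45101 probe sets in all, and Catsperb, an auxiliary CatSper subunit, matched no probe set, so its level was not analysed here.

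Whole testes were compared between Phf13 knockout mice and wild-type mice, 3 Affymetrix arrays each, all at 5 weeks of age. Phf13 encodes a protein with a PHD finger that binds histone H3 methylated at lysine 4. The labels give neither the strain nor how the allele was made, and do not say whether each array came from another animal, so the p-values measure the spread between these arrays, which may be technical. The question is whether these sperm genes differ in level when Phf13 is lost. Values are the authors' log2 values, so a difference of 1 is a doubling, and they run from 1.42 to 14.01. Precision is limited by how few arrays there are.

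The target gene went with the labels. Phf13 read 6.71, 6.60 and 6.55 in the knockout, against 9.55, 9.47 and 9.56 in wild type. Elongating spermatid markers were bright on every array. The means of 10 elongating spermatid genes, Prm1, Prm2 and Tnp1 among them, lay between 12.98 and 13.04 in knockout testes and between 13.03 and 13.07 in wild-type testes. The arrays form a high and a low set by their 18S ribosomal control probe sets. Knockout 1, wild type 1 and wild type 2 averaged 12.35 ± 0.32, and knockout 2, knockout 3 and wild type 3 averaged 10.09 ± 0.54 (SD, n = 3 each). The actin control's 3′ minus 5′ difference, a sign of RNA or labelling quality, ran from 0.75 to 0.89 in the high and from 0.56 to 0.59 in the low set, and that of Gapdh from 0.00 to 0.14 in the high and from -0.27 to -0.20 in the low set. Wild type 1 had the highest of both and also the highest mean of the member genes; the part of RNA quality in the members' values was not tested. Each set holds both genotypes, so every difference below could also be taken inside each set.

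None of the 12 probe sets passed limma's adjusted p of 0.05 in the knockout (0 of 12), where 0.0999% of all 45037 probe sets tested did. At an unadjusted p under 0.05, 3 of the 12 were lower and 1 was higher, against 8.31% lower and 6.81% higher over the array. The differences were small and mostly of one sign: 10 of 12 lay below 0, against 48.6% of all probe sets, with values from -0.33 to 0.30. The 48.6% covers dim probe sets too, and the share among those above the median level is not given here. The 3 knockout arrays all lay below the 3 wild-type arrays in 5 of 12, against 10.7% of all probe sets and 17.1% of those above the median level, where 10 of the 12 lie. The opposite arrangement, with all knockout arrays higher, was found in 0 of 12, against 8.62% over the array. The median over the 12 probe sets was -0.16, against -0.03 over all probe sets above the median level, which as a group lay slightly below 0. With 1 probe set per gene, the median over the 9 genes was -0.14 and that over all 18193 genes was 0.01. No test was made over the members as a set, because they were chosen with earlier results of these data known. The 95% intervals given with each gene show which sizes of difference these arrays leave possible, and a p above the threshold does not show that the genotypes were alike. In whole testis, fewer cells of a type and less RNA per cell cannot be told apart.

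**Figure D1:**
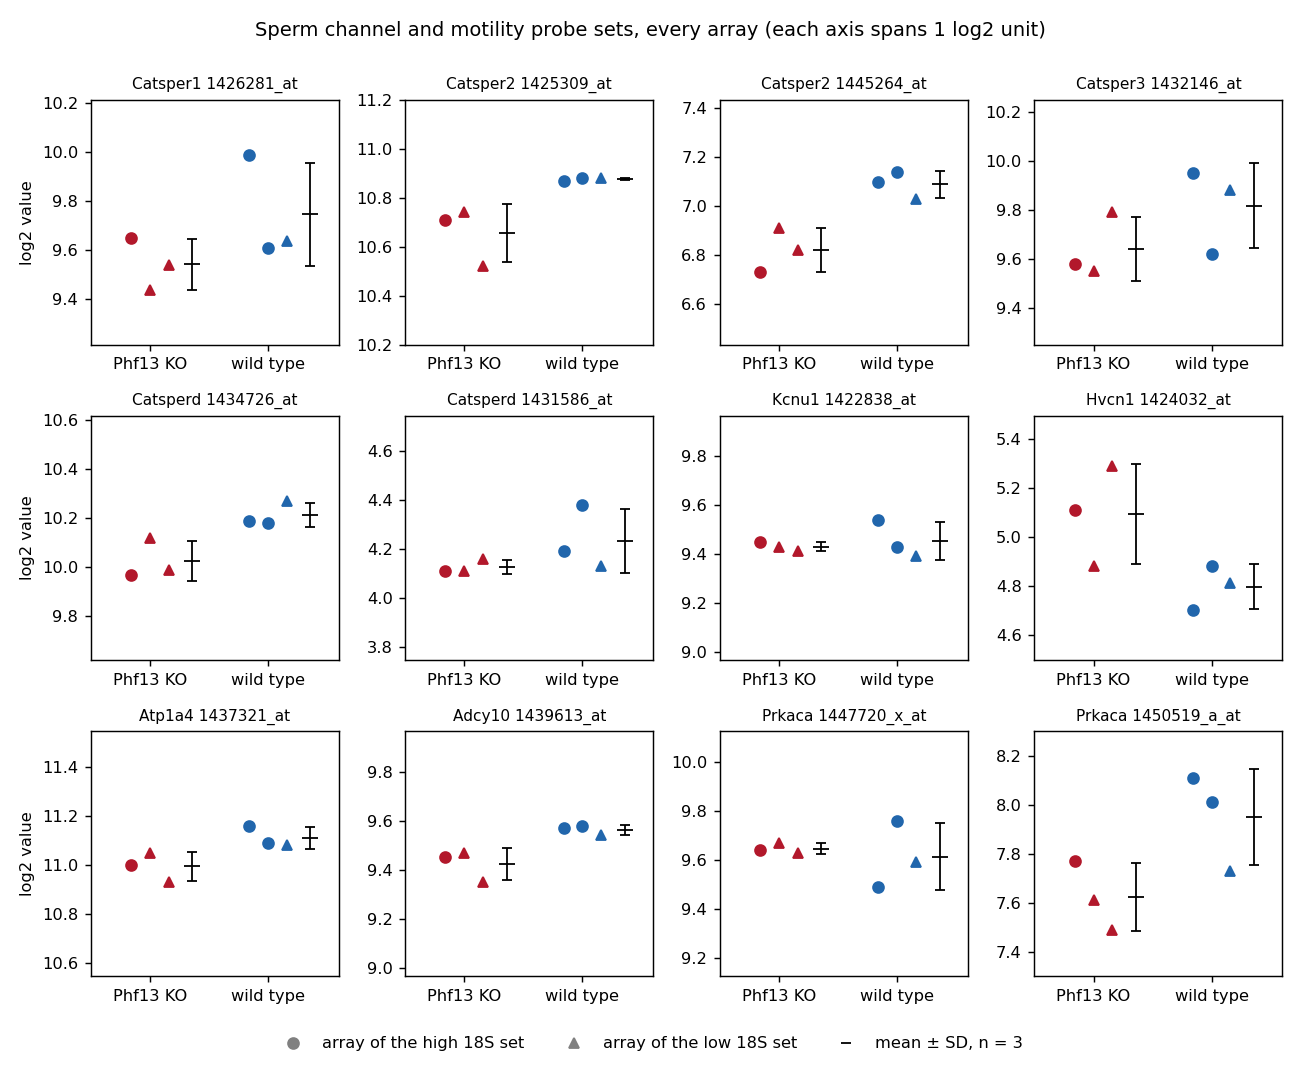
Log2 value of each of the 12 probe sets on every array, Phf13 knockout left in red and wild type right in blue. Circles and triangles mark the arrays with high and low 18S values, black bars the mean ± SD (n = 3), and each vertical axis spans 1 log2 unit; the groups are apart for both Catsper2 probe sets, Catsperd 1434726_at, Atp1a4 and Adcy10.

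Catsper2 was measured by 2 probe sets, and in both the knockout arrays lay below the wild-type arrays; Catsper1 and Catsper3 have 1 probe set each. Catsper2 encodes a pore subunit without which mouse sperm do not hyperactivate. Its bright probe set, 1425309_at, read 10.71, 10.74 and 10.52 in knockout testes, against 10.87, 10.88 and 10.88 in wild-type testes. The wild-type arrays were almost the same, and the lowest value was that of knockout 3. The difference was -0.22 (95% interval -0.43 to -0.01), or 0.859 of the wild-type level, with limma's adjusted p = 0.314. The dimmer probe set, 1445264_at, read 6.73, 6.91 and 6.82 in knockout and 7.10, 7.14 and 7.03 in wild type. Here the lowest array was knockout 1. The difference was -0.27 (95% interval -0.47 to -0.07; limma unadjusted p = 0.0158, adjusted p = 0.251), the smallest p of the 12.

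Catsper1 and Catsper3, which encode further pore subunits of the same channel, were lower on average, but their arrays overlapped. Catsper1 read 9.65, 9.44 and 9.54 in knockout and 9.99, 9.61 and 9.64 in wild type. Wild type 1 stood above the rest, and the difference of -0.20 (95% interval -0.48 to 0.08; limma adjusted p = 0.470) was -0.08 without that array. Catsper3 read 9.58, 9.55 and 9.79 in knockout and 9.95, 9.62 and 9.88 in wild type. Its difference was -0.18 (95% interval -0.45 to 0.09; limma adjusted p = 0.510), and it was -0.11 without wild type 1 and -0.28 without wild type 2. Both genes spread more between wild-type arrays than Catsper2 did, with SDs of 0.21 for Catsper1 and 0.17 for Catsper3.

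Catsperd encodes an auxiliary subunit that is needed in mice for the channel to be stable. Its bright probe set, 1434726_at, read 9.97, 10.12 and 9.99 in knockout, against 10.19, 10.18 and 10.27 in wild type. All knockout arrays lay lower, with a difference of -0.19 (95% interval -0.39 to 0.01; limma adjusted p = 0.360). The other probe set, 1431586_at, was dim, at 4.11, 4.11 and 4.16 in knockout and 4.19, 4.38 and 4.13 in wild type. Its arrays overlapped, with a difference of -0.11 (95% interval -0.32 to 0.11) that was -0.03 without wild type 2. Over the 6 CatSper probe sets the differences ran from -0.27 to -0.11 and all 6 were below 0. Probe sets of one gene share its transcripts, so these are 4 genes and not 6 independent values.

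The potassium and proton channel genes differed by -0.02 and 0.30. Kcnu1 read 9.45, 9.43 and 9.41 in knockout and 9.54, 9.43 and 9.39 in wild type. The knockout arrays lay inside the wild-type range, and the difference was -0.02 (95% interval -0.22 to 0.17; limma adjusted p = 0.925); it was 0.03 after quantile normalization and 0.02 without wild type 1. Hvcn1 was the member with the highest difference. It was dim, below the median probe set of the array at 5.26, and read 5.11, 4.88 and 5.29 in knockout, against 4.70, 4.88 and 4.81 in wild type. Knockout 2 equalled wild type 2, and the other knockout arrays lay above all of wild type. The difference was 0.30 (95% interval 0.02 to 0.57; limma unadjusted p = 0.0366, adjusted p = 0.302). No test of the difference between these genes was made.

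Hvcn1 is also known from leukocytes, so their markers are given beside it. Of 8 leukocyte genes, 8 lay above 0, and the median of the list was 0.36; 0 of 8 passed in limma, also before adjustment. The mean of the list ran from 5.76 to 6.65 in knockout arrays and from 5.89 to 6.11 in wild-type arrays. Its dimmest gene averaged 3.22, and Ptprc, the leukocyte common antigen, differed by 0.44. Inside the high 18S set the list's median was -0.14 while Hvcn1 differed by 0.32. Inside the low set the list's median was 0.42 and Hvcn1 differed by 0.28. The part of leukocytes in the Hvcn1 value was not tested further.

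Atp1a4, the pump gene, read 11.00, 11.05 and 10.93 in knockout, against 11.16, 11.09 and 11.08 in wild type. All knockout arrays lay below wild type, knockout 2 only just below wild type 3. The difference was -0.12 (95% interval -0.31 to 0.08; limma adjusted p = 0.546).

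Of the signalling genes, Adcy10 had all knockout arrays below wild type and Prkaca gave a split reading. The Adcy10 arrangement was found in 17.1% of probe sets above the median level. Adcy10 read 9.45, 9.47 and 9.35 in knockout and 9.57, 9.58 and 9.54 in wild type. The difference was -0.14 (95% interval -0.33 to 0.05; limma adjusted p = 0.464), 0.908 of the wild-type level. Prkaca probe set 1447720_x_at read 9.64, 9.67 and 9.63 in knockout and 9.49, 9.76 and 9.59 in wild type. The knockout arrays lay inside the wild-type range, with a difference of 0.03 (95% interval -0.19 to 0.25), which was -0.03 without wild type 1. Prkaca probe set 1450519_a_at read 7.77, 7.61 and 7.49 in knockout and 8.11, 8.01 and 7.73 in wild type. Only knockout 1 and wild type 3 overlapped. Its difference of -0.33 (95% interval -0.61 to -0.04; limma unadjusted p = 0.0295, adjusted p = 0.286) was the lowest of all 12, and it was the one call that an alternative produced, at -0.39 with array weights (limma adjusted p = 0.0479). That setting called 1654 probe sets higher and 1532 lower over the whole array. By Affymetrix's naming, probes of an x_at set can match other genes' transcripts, and those of an a_at set match several transcripts of one gene. Prkaca is known to be read from alternative first exons in somatic and in male germ cells; the sources used here do not say which of them each probe set reports.

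**Figure D2:**
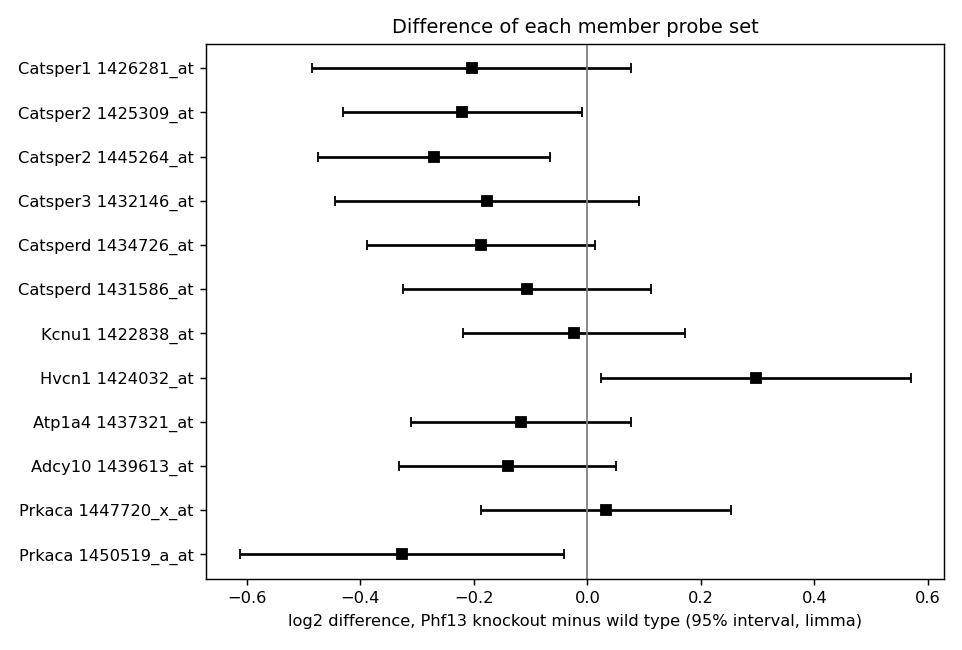
Log2 difference, Phf13 knockout minus wild type, of each member probe set with its 95% interval from limma (n = 3 arrays each). The intervals of both Catsper2 probe sets and of Prkaca 1450519_a_at lie below 0, that of Hvcn1 lies above 0, and the other 8 include 0; none passed after adjustment over the array.

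The differences were similar inside the high and the low 18S set for most members. Catsper1 differed by -0.15 in both, Catsper3 by -0.21 in both, the bright Catsperd probe set by -0.22 in both and Adcy10 by -0.13 in both. Atp1a4 differed by -0.13 in the high set and by -0.09 in the low set. The bright Catsper2 probe set differed by -0.17 in the high and -0.25 in the low set, and the dim one by -0.39 in the high and -0.17 in the low set. Prkaca 1450519_a_at differed by -0.29 in the high and -0.18 in the low set. In all, 8 of 12 probe sets were lower inside both sets, against 29.7% of all probe sets and 42.3% of those above the median level. The exceptions were Hvcn1 and Prkaca 1447720_x_at, higher inside both, and Kcnu1 and the dim Catsperd probe set, near 0 in the low set at 0.03 for Kcnu1 and 0.01 for Catsperd. Inside each set 1 array stands for one of the genotypes, so these values have no error of their own. The count of 8 is also not separate from the groups lying apart. A probe set whose knockout arrays all lie below wild type must be lower inside both sets, and 5 of the 8 are such.

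**Figure D3:**
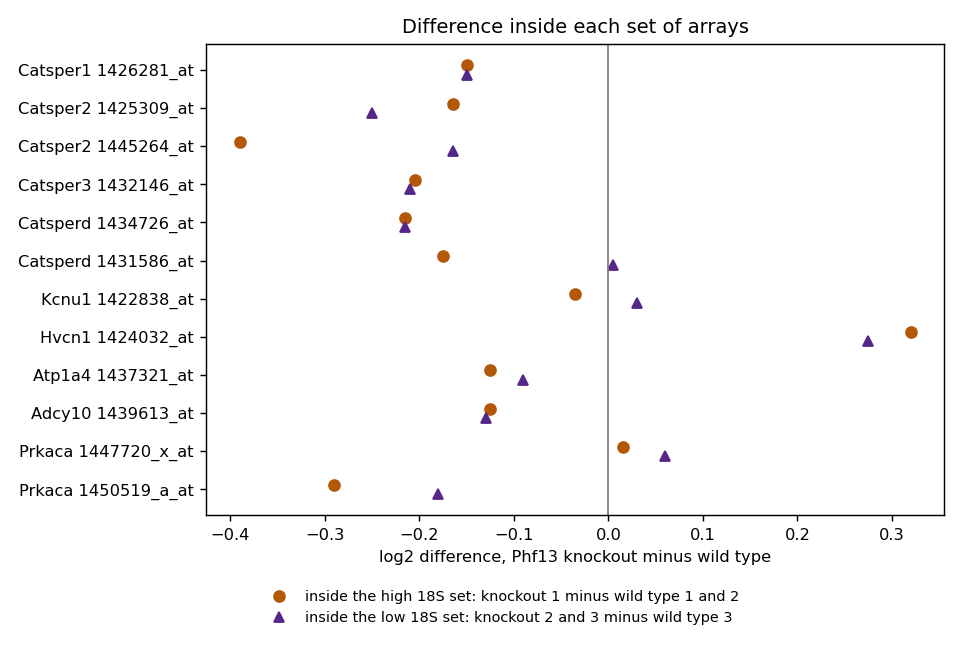
Log2 difference, Phf13 knockout minus wild type, of each member probe set inside the arrays with high 18S values (circles, knockout 1 against wild type 1 and 2) and inside those with low values (triangles, knockout 2 and 3 against wild type 3). For Catsper1, Catsper3, Catsperd 1434726_at and Adcy10 the symbols nearly coincide, between -0.22 and -0.13.

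The promoters of the 4 genes whose knockout and wild-type arrays did not overlap are shown to set their sequences beside the values, since Phf13 binds a histone mark found at active promoters. RefSeq's table for GRCm38.p6 matched 7 of the 10 genes, all but Catsper1, Kcnu1 and Hvcn1, with 9 windows, Catsperb included, of which the 250 bases before each start are printed 5′ to 3′. Capitals mark matches, on either strand, to CCAAT, to the GC box GGGCGG, to the cyclic AMP response element TGACGTCA or its variant TGACGTNA, to the half-site TGACG, which lies within both, or to TATAAA.
Catsper2, chr2:121413793-121414042, minus strand: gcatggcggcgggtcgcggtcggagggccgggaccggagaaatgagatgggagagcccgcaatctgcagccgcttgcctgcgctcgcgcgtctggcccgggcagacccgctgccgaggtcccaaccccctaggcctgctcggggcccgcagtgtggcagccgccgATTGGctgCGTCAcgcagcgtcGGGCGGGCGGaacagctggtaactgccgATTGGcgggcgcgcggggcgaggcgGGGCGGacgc
Catsperd, chr17:56626797-56627046, plus strand: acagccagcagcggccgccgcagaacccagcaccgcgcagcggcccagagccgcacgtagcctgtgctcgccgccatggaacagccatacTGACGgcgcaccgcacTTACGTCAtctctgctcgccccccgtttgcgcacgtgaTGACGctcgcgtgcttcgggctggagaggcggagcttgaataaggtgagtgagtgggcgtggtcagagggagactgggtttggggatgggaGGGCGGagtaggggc
Catsperd, chr17:56627893-56628142, plus strand: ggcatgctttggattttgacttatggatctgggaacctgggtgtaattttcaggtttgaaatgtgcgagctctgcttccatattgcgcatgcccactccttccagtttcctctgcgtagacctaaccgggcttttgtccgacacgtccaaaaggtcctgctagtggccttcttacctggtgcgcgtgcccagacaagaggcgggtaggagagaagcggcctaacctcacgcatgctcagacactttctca
Atp1a4, chr1:172258425-172258674, minus strand: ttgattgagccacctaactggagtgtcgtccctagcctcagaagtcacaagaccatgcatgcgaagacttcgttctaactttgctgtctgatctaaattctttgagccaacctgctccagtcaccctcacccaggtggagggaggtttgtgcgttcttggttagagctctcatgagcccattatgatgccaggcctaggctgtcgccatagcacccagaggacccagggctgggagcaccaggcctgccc
Adcy10, chr1:165484933-165485182, plus strand: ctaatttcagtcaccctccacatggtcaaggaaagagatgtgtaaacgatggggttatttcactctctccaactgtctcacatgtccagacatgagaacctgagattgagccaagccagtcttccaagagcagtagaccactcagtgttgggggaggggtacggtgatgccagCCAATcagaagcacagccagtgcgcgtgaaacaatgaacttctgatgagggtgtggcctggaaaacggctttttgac

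The windows differ in base composition. That of Catsper2 is 74.8% G and C with 35 CpG dinucleotides, and the upstream start of Catsperd has 66.8% and 25, against medians of 52.4% and 6 over 32851 windows. Atp1a4, with 54.8% and 5, and Adcy10, with 50.0% and 5, lie near those medians. The downstream start of Catsperd lies near the median of G and C, at 52.8%, but has more CpG dinucleotides, at 11. The Catsper2 window holds CCAAT on the opposite strand at 85 to 81 and at 35 to 31 bases before the start, and GC boxes from 63, 59 and 10 bases before it. Adcy10 holds 1 CCAAT, at 77 to 73 bases. CCAAT was found in 4 of the 9 member windows and in 33.8% of all windows, and the GC box in 3 of 9 and in 32.7%. The variant TGACGTNA is a site type of CREM, the cyclic AMP response factor of spermatids. It was found in 1 of 9, as TTACGTCA on the opposite strand at 144 to 137 bases before the upstream Catsperd start. Over all windows its share was 2.52%, which includes windows with TGACGTCA, since N stands for any base. The half-site was found in 3 of 9 and in 17.8%, while TGACGTCA and TATAAA were found in 0 of 9, and in 1.55% and 12.4% of all windows. A match is a description of letters and shows no binding.

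Other genes of the CatSper complex also lay mostly below 0, and none passed (0 of 8). Of 8 measured genes of that list, 7 lay below 0 with a median of -0.10, and limma called 0, where it called 0.137% of all genes. Before adjustment, 2 had a p under 0.05 as lower and 0 as higher, against 8.72% and 8.58% of all genes; the counts before adjustment below use the same p. Slco6c1, an organic anion transporter of the complex, read 10.94, 10.89 and 10.77 in knockout, against 11.06, 11.11 and 11.11 in wild type, a difference of -0.23 (SE 0.09, limma adjusted p = 0.290). Catsperg1, an auxiliary subunit, read 6.57, 6.64 and 6.58 in knockout, against 6.78, 6.83 and 6.77 in wild type, a difference of -0.20 (SE 0.08, limma adjusted p = 0.310). In both genes the groups did not overlap, as in 13.5% of all genes in this direction. Catsperz, which works with the calcium sensor Efcab9, differed by -0.09, Efcab9 itself by -0.10, and C2cd6 by -0.02.

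Genes that set membrane voltage and pH lay on both sides of 0. Of 13 measured, 6 were below 0 and 7 above, with a median of 0.05; 0 passed in limma, also before adjustment. Lrrc52, the partner subunit of Kcnu1 in sperm, differed by -0.04, close to Kcnu1 itself. Slc9b1, a sodium-proton exchanger gene, read 10.67, 10.69 and 10.52 in knockout and 10.84, 10.84 and 10.74 in wild type, a difference of -0.18. The anion transporter gene of sperm Slc26a8 differed by -0.16, also without overlap. Slc26a3 differed by 0.27 but was dim, with a mean of 2.97.

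The other sodium and calcium pump genes lay mostly above 0. Of 11 measured, 8 did, with a median of 0.20; 0 passed in limma, and before adjustment 4 were higher and 0 lower. Atp1b2, a beta subunit of the sodium pump, read 7.87, 7.68 and 7.85 in knockout, against 7.65, 7.45 and 7.37 in wild type, a difference of 0.31 (SE 0.11, limma adjusted p = 0.257). Atp1b1 differed by 0.24, the pump regulator gene Fxyd3 by 0.34 and the plasma membrane calcium pump gene Atp2b1 by 0.26. The other calcium pump genes held both signs, with Atp2b2 at 0.06, Atp2c1 at 0.18, Atp2b3 at -0.19 and Atp2b4 at -0.31. Their arrays overlapped, and Atp2b2, Atp2b3 and Atp2b4 were dim, with means of 5.16, 4.96 and 4.42. Atp1b3, a further beta subunit gene, differed by -0.05. Somatic cells of the testis also use several of these genes. Sertoli cell markers had a median difference of 0.39, with list means of 9.19 to 9.25 in knockout arrays and 8.88 to 8.92 in wild-type arrays. Of 10 Sertoli genes 0 passed in limma, and before adjustment 7 were higher, Cst12 at 0.58, Inhbb at 0.41 and Fshr at 0.45. Leydig cell markers had a median of 0.28 over 5 genes, of which 0 passed and, before adjustment, 2 were higher and 0 lower, with Hsd3b1 at 0.56, Star at 0.49 and Nr5a1 at 0.13. Their part in the pump values was not tested.

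The cyclic AMP and protein kinase A list held both signs. Of 27 genes, 14 were below 0 and 13 above, with a median of -0.00; 0 passed in limma, and before adjustment 3 were lower and 0 higher. Adcy6, a membrane-bound adenylyl cyclase, read 6.28, 6.43 and 6.48 in knockout, against 6.67, 6.86 and 6.91 in wild type, a difference of -0.42 (SE 0.10, limma adjusted p = 0.195). The phosphodiesterase genes Pde1c and Pde4a, whose products break down cyclic nucleotides, differed by -0.30 and -0.49, Pde4a with overlapping arrays.

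Among kinases and phosphatases of sperm motility, 8 of 12 were below 0, with a median of -0.06; 0 passed in limma, and before adjustment 3 were lower and 0 higher. Ppp3ca, a catalytic subunit of calcineurin, read 9.93, 9.98 and 9.86 in knockout, against 10.23, 10.35 and 10.31 in wild type, a difference of -0.37 (SE 0.09, limma adjusted p = 0.186). The tyrosine kinase gene Fer differed by -0.36 and Csnk2a2, a catalytic subunit of casein kinase 2, by -0.36. In these 3 genes, named for the smallest p of the list, the knockout arrays all lay below wild type. Over the list this held for 4 of 12, against 13.5% of all genes, and 1 gene had all knockout arrays higher. Of all 71 related genes measured, 0 passed in limma, before adjustment 8 were lower and 4 higher, and with array weights 6 were called. Over all 45037 probe sets, that setting called 1654 higher and 1532 lower.

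**Figure D4:**
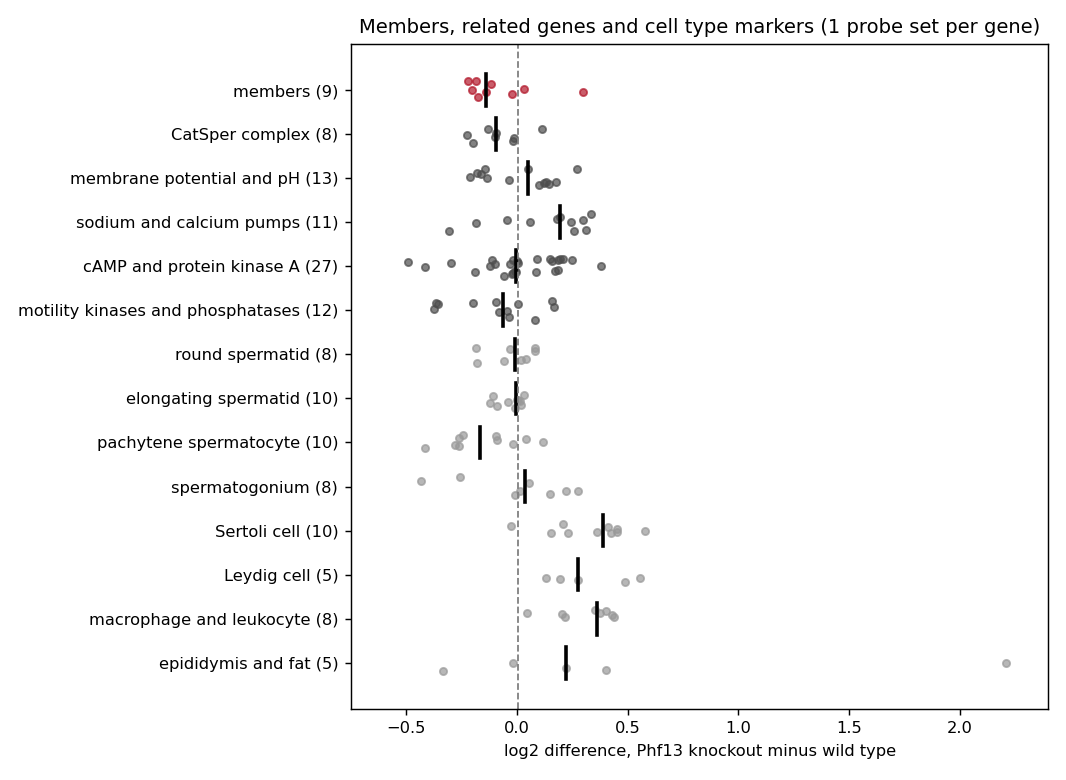
Log2 difference, Phf13 knockout minus wild type, of each gene (points, 1 probe set per gene) with the median of each list (black bars) and of all genes (dashed line at 0.01). Counts of genes are in brackets; the members and the other CatSper genes sit mostly left of the line, the pump genes and the Sertoli, Leydig and leukocyte markers mostly right of it.

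Markers of the germ cells that make these transcripts were measured on the same arrays. Round spermatid markers had a median of -0.01 over 8 genes, 4 on each side of 0, with list means of 10.67 to 10.71 in knockout and 10.65 to 10.80 in wild type. Spata16 differed by -0.18, Tex21 by -0.18 and Spaca7 by 0.08. Elongating spermatid markers had a median of -0.01 over 10 genes, with Gapdhs at -0.12, Spem1 at -0.11 and Smcp at -0.09. Neither list held a gene that limma called, before adjustment or after it. In the elongating list, Prm1, at 13.98 to 14.01, equalled the highest value of every array. Values at the top of the scale may show less difference than there was, and this was not tested. Pachytene spermatocyte markers had a median of -0.17, 8 of 10 below 0, and list means of 11.01 to 11.07 in knockout arrays and 11.14 to 11.23 in wild-type arrays. Of these 10, 0 passed in limma and 4 were lower before adjustment, Aurkc at -0.42, Ccna1 at -0.28 and Piwil1 at -0.26 among them. The 2 above 0 were Sycp3 at 0.12 and Pgk2 at 0.04. The means of the 9 member genes were 9.40, 9.37 and 9.38 in knockout arrays and 9.50, 9.45 and 9.45 in wild-type arrays. Both the mean of the spermatocyte list and that of the members were lower on each knockout array than on any wild-type array. The same held for 2 related lists. The other CatSper genes reached at most 8.48 in knockout and at least 8.51 in wild type, and the motility kinases and phosphatases 10.43 and 10.49. Other lists were higher on each knockout array than on any wild-type array. The pump genes had at least 6.67 in knockout and at most 6.62 in wild type. For Sertoli markers these values were 9.19 and 8.92, and for epididymis and fat 5.19 and 5.08. The part of spermatocyte number in the members' values was not tested.

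Spermatogonium markers had a median of 0.04 over 8 genes, of which 0 passed and 1 was lower before adjustment, Lin28a at -0.43, beside Gfra1 at 0.22 and Zbtb16 at -0.26. Genes of epididymis and fat, which a dissection can carry along, had a median of 0.22 over 5 genes, with Fabp4 at 2.21, Cidec at 0.40 and Defb41 at -0.33; 0 passed, and before adjustment 2 were higher and 1 lower. Defb41, a defensin gene of the epididymis, was dim, between 3.78 and 3.94 in knockout and between 4.05 and 4.43 in wild type. Among the leukocyte genes, Cd3g differed by 0.22 and Csf1r by 0.35.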

How the data were processed

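Total RNA of whole testis was measured on 6 Affymetrix arrays. The values the authors deposited are log2, 1 per probe set. The submitters' processing notes name Affymetrix Expression Console 1.4.1; the scale was read from the values, and the sources used here give no summarization, normalization or genome build. The 64 control probe sets were left out and 45037 were tested. Symbols were those of GEO's platform annotation, 34945 probe sets having 1 symbol, 932 several and 9160 none; RefSeq (GRCm38.p6) changed 0 symbols, and 34741 were found in it. A gene was represented by its probe set with the highest mean.

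Tests used R 4.3.3 and limma 3.58.1 (lmFit on genotype, eBayes, two-sided, Benjamini-Hochberg over all probe sets, threshold 0.05). Every p and adjusted p is from this fit unless an alternative is named beside it. An exact permutation test of 3 against 3 cannot go below 0.1. The members, lists and alternatives were chosen with earlier results of these data known. Named were all member probe sets and, from each list, genes past the threshold or else the 3 with the smallest p. Prm1, Prm2, Tnp1, Sycp3, Pgk2, Lrrc52, Efcab9, C2cd6, Atp1b3, Atp2b1, Atp2b2, Atp2b3, Atp2b4 and Atp2c1 were added after their values were seen. Related lists held 78 genes, 71 measured.

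The fit was tested on simulated data with planted differences before use. No pair of arrays was the same, with root mean square differences of at least 0.17.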

Additional observations from a re-analysis of the deposited data

How the results depend on the processing

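Over 166 combinations of a member probe set with an alternative, 159 kept their sign and stayed uncalled, 1 became a call (Prkaca 1450519_a_at with array weights) and 6 turned sign, all at Kcnu1 or Prkaca 1447720_x_at: Kcnu1 was 0.0257 with a block for runs of title codes and 0.0281 after quantile normalization, and Prkaca 1447720_x_at was -0.0171 with the title code block and -0.0058 with array weights. Leaving out 1 array at a time, Kcnu1 ran from -0.055 to 0.02 and Prkaca 1447720_x_at from -0.0283 to 0.107, both turning without wild type 1. The median of the 9 member genes was -0.09 with the title code block and -0.0939 after quantile normalization, and ran from -0.147 to -0.0917 over arrays left out, -0.0917 being without wild type 1 and -0.10 without knockout 3. Array weights called 1 member probe set and 6 related genes; the other alternatives called 0 of either. Over the whole array, 25 higher and 20 lower became 12 and 4 with the title code block, 66 and 44 with an intensity trend and robust moderation, 1654 and 1532 with array weights, and 48 and 52 at an adjusted p under 0.1. Above the median level 37 were higher and 42 lower. Leaving out 1 array gave 8 to 178 higher and 4 to 998 lower: 178 and 998 without wild type 3, 140 higher without knockout 1, and 8 to 12 higher with 4 to 8 lower when wild type 1, wild type 2, knockout 2 or knockout 3 was left out. With the replicate number as a block, 22 were higher and 6 lower and the member median was -0.14. The labels do not say that a number pairs arrays: deviations of same-numbered arrays correlated at 0.26, 0.07 and 0.12, and knockout 2 correlated best with wild type 3 (0.13). The cause of these shifts was not tested.

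Hvcn1, at 4.95 on average, and Catsperd 1431586_at, at 4.18, lie below the median level, and no background level was used, so dim values are less certain.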
